A study of Mus musculus with 25 samples.

Results

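The SNARE and exocytosis machinery was taken as every gene whose symbol belongs to the syntaxins, the SNAP and VAMP families, the syntaxin-binding proteins, the synaptotagmins, the synaptotagmin-like proteins, the Munc13 (Unc13), RIM and complexin families, the Doc2 and CAPS (Cadps) proteins, the Rab3 and Rab27 GTPases, the rabphilins, Nsf, Ptprn or Ptprn2. The rule used symbols alone and found 84 of the 24439 genes in the RNA table. In the chromatin table it found 404 of 65053 peaks, which the authors had assigned to 72 of these genes by the nearest start site, and the other 12 genes had no peak. Snap91, a clathrin adaptor, entered by its symbol and is not a SNARE.

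The study compared alpha TC1 clone 6 (αTC1), a glucagon-secreting mouse tumour line that is a single clone, with beta-TC-6 (βTC6), an insulin-secreting mouse tumour line. Both lines come from mice in which a hormone gene promoter (glucagon for αTC1, insulin for βTC6) drove the large T antigen of a simian virus. RNA was sequenced from 3 samples of each line, and open chromatin was mapped by ATAC-seq, in which a transposase cuts accessible DNA, in 5 samples of each line and in 9 mixtures of counted cells holding 10% to 90% αTC1. The cells received no treatment. αTC1 was grown in a lower-glucose medium with less serum than βTC6, so that line and medium cannot be told apart. The labels do not say whether samples of a line came from separate cultures, and p-values therefore measure only the spread between these samples, which may be technical.

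Hormone granules are released when a vesicle SNARE of the VAMP family zips together with a syntaxin and SNAP-25 on the plasma membrane. Sec1/Munc18 and Munc13 proteins assemble this complex, complexins regulate it and synaptotagmins couple it to calcium. Rab3 and Rab27 and their effectors, among them the Rims1 and Rims2 proteins, rabphilin and the synaptotagmin-like proteins, tether granules at the membrane. CAPS proteins prime granules for release.

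The sequences upstream of 7 start sites are shown because these genes were among those with the largest RNA differences and had a peak at the promoter. Each is the 200 bases (mouse build mm9) before a GENCODE start site, read on the gene's strand. For Vamp8 this is a start inside the gene (72339905, where the gene spans chr6:72335217-72340697). Its window is therefore gene sequence and not the sequence before the gene's 5' end. Capitals mark matches on either strand to CAGCTG (an E-box core), TGACGT (a cAMP response element core), TAATTA (a homeobox core) or TGTTTAC (a forkhead core).
Unc13b (chr4:43071625-43071824, plus strand): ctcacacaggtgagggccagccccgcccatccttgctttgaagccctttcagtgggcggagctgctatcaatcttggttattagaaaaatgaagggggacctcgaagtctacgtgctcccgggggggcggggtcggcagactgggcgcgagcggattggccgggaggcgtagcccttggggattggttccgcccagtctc
Sytl4 (chrX:130516352-130516551, minus strand): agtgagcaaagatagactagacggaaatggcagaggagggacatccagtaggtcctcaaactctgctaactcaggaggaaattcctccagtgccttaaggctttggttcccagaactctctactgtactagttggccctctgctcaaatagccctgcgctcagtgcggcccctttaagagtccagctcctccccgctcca
Cadps2 (chr6:23789422-23789621, minus strand): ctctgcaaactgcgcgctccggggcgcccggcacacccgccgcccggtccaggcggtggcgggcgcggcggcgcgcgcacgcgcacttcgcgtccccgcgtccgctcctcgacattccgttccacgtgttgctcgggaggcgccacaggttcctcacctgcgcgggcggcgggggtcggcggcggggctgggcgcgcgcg
Stxbp6 (chr12:46175481-46175680, minus strand): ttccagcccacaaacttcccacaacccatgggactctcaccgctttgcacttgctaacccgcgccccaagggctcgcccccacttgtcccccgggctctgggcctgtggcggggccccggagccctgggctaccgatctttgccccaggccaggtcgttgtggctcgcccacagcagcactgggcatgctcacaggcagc
Syt10 (chr15:89672292-89672491, minus strand): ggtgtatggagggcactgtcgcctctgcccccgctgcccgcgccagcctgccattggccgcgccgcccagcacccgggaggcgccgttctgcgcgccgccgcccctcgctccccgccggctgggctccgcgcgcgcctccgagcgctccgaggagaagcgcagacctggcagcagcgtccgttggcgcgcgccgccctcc
Vamp8 (chr6:72339906-72340105, minus strand): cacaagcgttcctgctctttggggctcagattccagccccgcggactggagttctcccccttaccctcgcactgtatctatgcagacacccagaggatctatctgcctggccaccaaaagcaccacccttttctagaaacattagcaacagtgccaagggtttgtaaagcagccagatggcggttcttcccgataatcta
Cplx1 (chr5:108979044-108979243, minus strand): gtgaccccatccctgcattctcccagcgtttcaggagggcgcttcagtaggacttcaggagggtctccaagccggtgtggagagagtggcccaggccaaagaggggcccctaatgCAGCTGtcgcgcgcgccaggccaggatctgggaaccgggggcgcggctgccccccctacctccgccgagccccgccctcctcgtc

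Of these 7 windows, that of Cplx1 held a match, 1 E-box core. CAGCTG was present in 9.64% of the 22380 windows of the same length before protein-coding genes, TGACGT in 6.52%, TAATTA in 3.50% and TGTTTAC in 2.14%. The windows differed in base composition. GC content was 79.5% for Cadps2 and 79% for Syt10, against 53% for Sytl4 and for the window inside Vamp8. The median over all 22380 windows was 55.5%.

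Of the peaks away from start sites, 3 with a large accessibility difference are shown by the 200 bases at their centre, read on the plus strand of mm9. The Syt1 peak was more open in βTC6, and the Cplx2 and Syt14 peaks were more open in αTC1.
Syt1 (chr10:108783314-108783513, plus strand): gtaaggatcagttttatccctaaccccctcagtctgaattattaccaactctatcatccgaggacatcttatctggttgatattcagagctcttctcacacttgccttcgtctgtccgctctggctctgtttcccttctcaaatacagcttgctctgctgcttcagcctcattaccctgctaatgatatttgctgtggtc
Cplx2 (chr13:54404667-54404866, plus strand): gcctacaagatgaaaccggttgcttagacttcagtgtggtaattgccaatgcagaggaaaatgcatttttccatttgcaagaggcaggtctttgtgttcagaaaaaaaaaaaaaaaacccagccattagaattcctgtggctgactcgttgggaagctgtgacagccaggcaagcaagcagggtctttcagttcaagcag
Syt14 (chr1:194879502-194879701, plus strand): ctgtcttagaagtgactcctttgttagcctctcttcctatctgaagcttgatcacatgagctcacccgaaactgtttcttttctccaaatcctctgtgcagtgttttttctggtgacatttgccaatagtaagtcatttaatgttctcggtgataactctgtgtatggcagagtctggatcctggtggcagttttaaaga

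These 3 windows held no match to the 4 cores, which occurred in 17.2% (CAGCTG), 3.88% (TGACGT), 6.93% (TAATTA) and 6.31% (TGTTTAC) of all 65053 peak centres.

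The RNA libraries held 21954011 to 26033475 counts, and the libraries of pure lines and mixtures held 4397851 to 10374903 ATAC reads in peaks. The summed FPKM (fragments scaled to transcript length and to sequencing depth, a level per length) of 7 table entries for alpha cell markers was 13424 to 15523 in αTC1 and 786 to 1893 in βTC6. By edgeR 5 of the 7 were called higher in αTC1 and 0 in βTC6, and Ttr, which held most of the sum in βTC6, did not pass the test (835 ± 154 FPKM in αTC1 and 1116 ± 526 in βTC6, SD, n = 3 each, FDR = 0.215). The summed FPKM of 8 beta cell markers was 145 to 192 in αTC1, where Ins1 and Pdx1 were at 0, and 34330 to 51395 in βTC6. By edgeR 7 of the 8 were called higher in βTC6 and 0 in αTC1, and Slc30a8, which held most of the sum in αTC1, was at 146 ± 26.2 and 235 ± 5.67 FPKM (SD, n = 3 each). Of 13 markers of other cell types, 1 reached an FPKM of 1 in each αTC1 library and 3 did so in each βTC6 library. Their sum was 4.27 to 5.02 in αTC1 and 245 to 359 in βTC6, where the delta cell hormone Sst stood at 256 ± 61.9 FPKM (SD, n = 3) against 0 in αTC1. The part of such other hormone-expressing cells in the differences between the lines was not tested.

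Of the 84 genes, 64 passed the expression filter (an FPKM of 1 or more in each of the 3 libraries of αTC1 or of βTC6). A gene was called when edgeR's quasi-likelihood test gave a false discovery rate (FDR, Benjamini-Hochberg) below 5% and the log2 fold change, given throughout as βTC6 over αTC1, was beyond 2 in either direction. By this rule 11 genes were higher in βTC6 (17.2% of the 64, against 10.2% of all 12195 genes tested) and 5 were higher in αTC1 (7.81%, against 4.08%). At FDR alone, 34 members were higher in βTC6 and 19 in αTC1, beside 38.7% and 36.0% of all genes. The median log2 fold change of the tested members was 0.32 (0.01 over all genes) and the median size of the change, without its sign, was 0.85 (0.61 over all genes). In bulk samples, fewer expressing cells and less RNA per cell cannot be told apart.

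**Figure D1:**
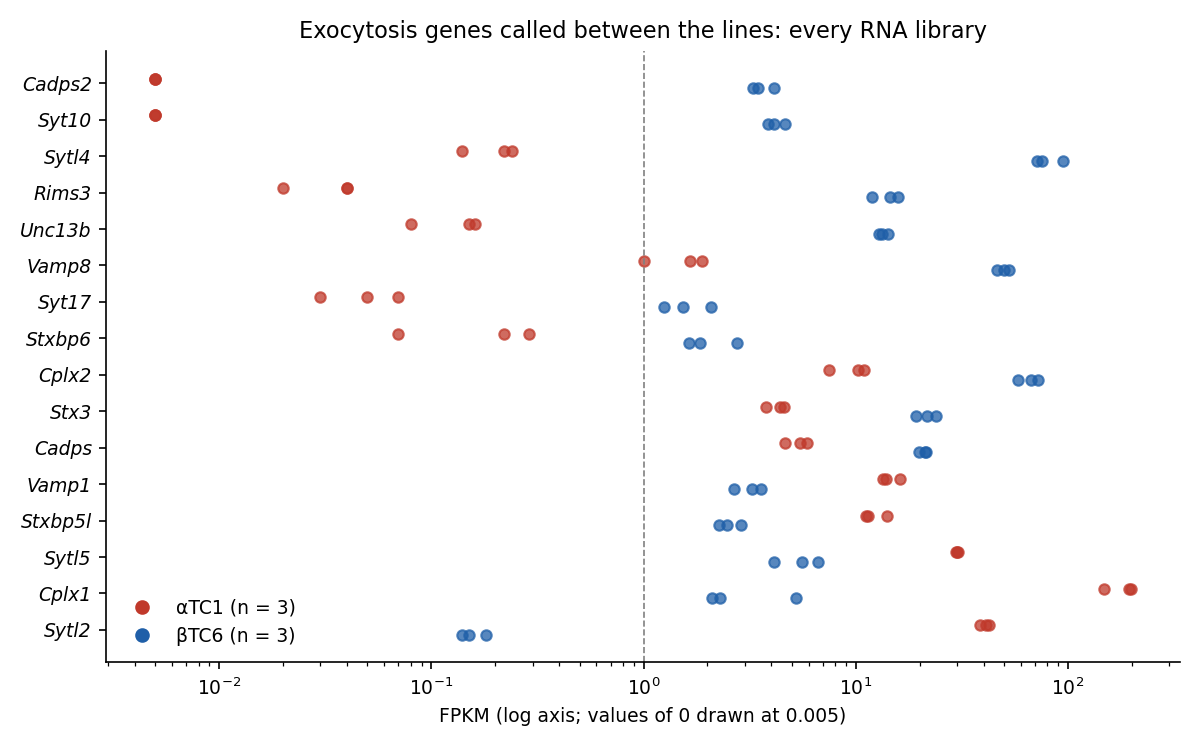
FPKM (log axis, values of 0 drawn at 0.005) of the 16 called genes in each of the 3 αTC1 (red) and 3 βTC6 (blue) RNA libraries, with a dashed line at an FPKM of 1. The lines do not overlap for any of the 16 genes, which selection by FDR and fold all but fixed. The share without overlap over all called genes was not counted. Sytl4 and Sytl2 show the gap in each direction, with means of 0.20 ± 0.05 against 80.6 ± 12.8 and 40.7 ± 2.03 against 0.16 ± 0.02 FPKM (SD, αTC1 against βTC6).

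Complexins bind the assembled SNARE complex and regulate its final zippering. Cplx1 (chr5:108947573-108979043) was at 194, 198 and 147 FPKM in the αTC1 libraries and at 2.09, 2.28 and 5.21 in the βTC6 libraries (log2 fold change -5.76 ± 0.33 SE, FDR = 5.35e-07). Cplx2 (chr13:54472713-54485278) went the other way, at 10.2, 11 and 7.49 FPKM in αTC1 and 72.6, 58.4 and 66.6 in βTC6 (log2 fold change 2.84 ± 0.15 SE, FDR = 2.98e-07). Every αTC1 library was above every βTC6 library for Cplx1 and below every one for Cplx2. Cplx1 made up 95% ± 0.21 of the family's summed FPKM in αTC1 and Cplx2 95.3% ± 2.35 in βTC6 (SD, n = 3 each). The summed level of the family was 189 ± 30.1 FPKM in αTC1 and 69.1 ± 7.40 in βTC6 (SD, n = 3 each). These shares and sums, and those of the other families, are given as a description and were not tested. Cplx3 did not exceed 0.06 FPKM and Cplx4 was at 0 in all libraries.

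Synaptotagmin-like proteins link Rab27 on granules to the plasma membrane. Sytl2 (chr7:97497209-97558948) was at 41.2, 42.4 and 38.4 FPKM in αTC1 and at 0.14, 0.18 and 0.15 in βTC6 (log2 fold change -7.94 ± 0.13 SE, FDR = 1.11e-09). Sytl4, or granuphilin (chrX:130470924-130516351), was at 0.24, 0.14 and 0.22 FPKM in αTC1 and at 71.4, 75.1 and 95.2 in βTC6 (log2 fold change 9.37 ± 0.20 SE, FDR = 2.79e-09). Sytl5 was at 30.1, 30.3 and 29.8 FPKM in αTC1 and at 6.66, 5.57 and 4.13 in βTC6 (log2 fold change -2.41 ± 0.15 SE, FDR = 9.60e-07). Sytl2 and Sytl5 were thus high in all αTC1 libraries and Sytl4 in all βTC6 libraries, with no overlap. Of the family's FPKM, Sytl2 held 57.2% ± 1.02 and Sytl5 42.3% ± 0.99 in αTC1, and Sytl4 held 92.8% ± 2.33 in βTC6 (SD, n = 3 each). The summed level was 71.1 ± 2.29 FPKM in αTC1 and 86.6 ± 11.5 in βTC6. Sytl1 and Sytl3 did not exceed 0.33 FPKM. Rab27a, the GTPase these proteins bind, was expressed in both lines at 17.5 to 20.7 and 21.2 to 24.8 FPKM (log2 fold change 0.35 ± 0.09 SE, FDR = 0.00732), and Rab27b did not exceed 0.70 FPKM.

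**Figure D2:**
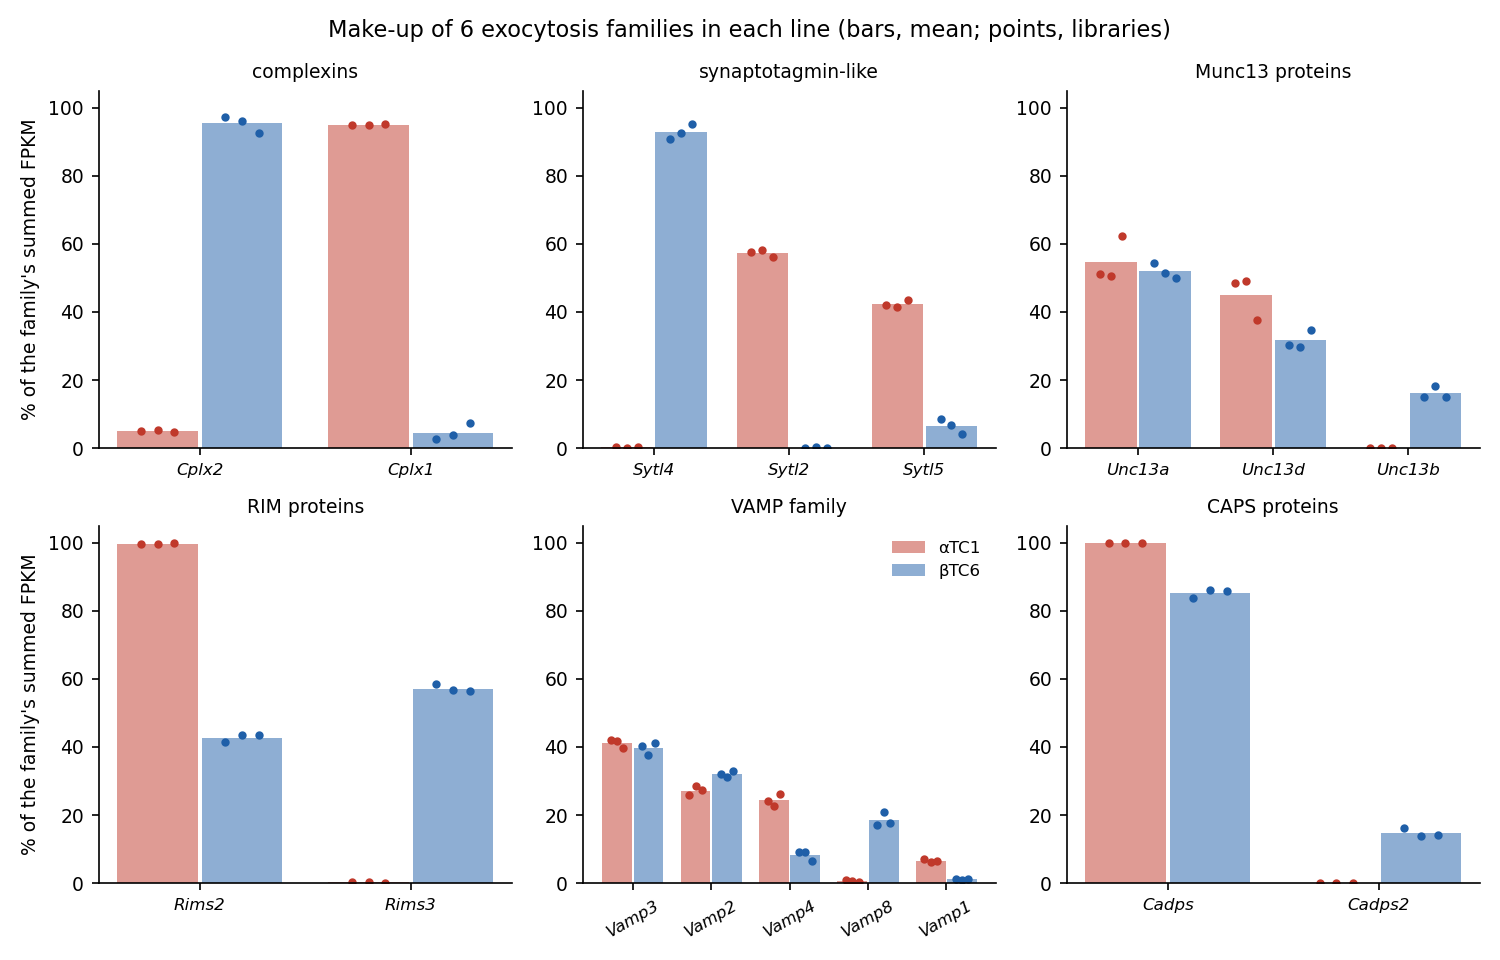
Share of each family's summed FPKM (%) taken by its members in αTC1 (red) and βTC6 (blue) for 6 families, with bars at the mean and points for the 3 libraries of each line. Cplx1 takes 95% of the complexins in αTC1 and Cplx2 95.3% in βTC6, Sytl4 takes 92.8% of the synaptotagmin-like proteins in βTC6, and Rims3 takes 57.1% of the RIM proteins in βTC6 against 0.24% in αTC1.

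Munc13 proteins open syntaxin and prime granules. Unc13b (Munc13-2, chr4:43071825-43277745) was at 0.15, 0.08 and 0.16 FPKM in αTC1 and at 13.2, 12.8 and 14.1 in βTC6 (log2 fold change 7.18 ± 0.22 SE, FDR = 1.38e-08), so that each βTC6 library was far above each αTC1 library. Unc13a (Munc13-1) was at 50.8 to 70.3 FPKM in αTC1 and 36.1 to 48.0 in βTC6 and did not pass the test (log2 fold change -0.24 ± 0.13 SE, FDR = 0.137). Unc13d (Munc13-4) was higher in αTC1 below the fold threshold (log2 fold change -0.76 ± 0.14 SE, FDR = 0.00111). Unc13b made up 16.1% ± 1.87 of the family's FPKM in βTC6 and 0.12% ± 0.04 in αTC1 (SD, n = 3 each). Unc13c stayed at or below 0.25 FPKM.

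Both CAPS priming proteins were higher in βTC6. Cadps2 (chr6:23212773-23789421) had 0 counts in all 3 αTC1 libraries and 396, 340 and 310 counts in βTC6 (4.11, 3.46 and 3.29 FPKM). Against a floor of 3 counts per αTC1 library it was at least 113-fold higher in βTC6 (FDR = 5.58e-07). Cadps was at 5.47, 5.87 and 4.65 FPKM in αTC1 and 21.3, 21.5 and 19.8 in βTC6, with no overlap. Its log2 fold change of 2.02 ± 0.10 (SE, FDR = 2.18e-07) was just past the threshold, and the call was lost without αTC1 replicate 3 (1.94), without βTC6 replicate 2 (1.97), with no expression filter (1.97) and with limma on log2(FPKM + 1) (1.79). Cadps lies on chromosome 14, where the median log2 fold change was 1.2 over 415 tested genes and 1.54 over 2830 peaks. The part of this chromosome-wide difference in the Cadps values was not tested.

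Of the RIM family, Rims1 and Rims2 encode scaffolds that bind Rab3 and Munc13. Rims3 (chr4:120527421-120569184) was at 0.04, 0.04 and 0.02 FPKM in αTC1 and at 14.6, 11.9 and 15.8 in βTC6 (log2 fold change 8.73 ± 0.19 SE, FDR = 2.79e-09). Rims2 was at 13.3 to 14.1 FPKM in αTC1 and 9.12 to 12.2 in βTC6 (log2 fold change -0.48 ± 0.08 SE, FDR = 0.000402), a change that passed the FDR and not the fold threshold. Rims2 took 99.7% ± 0.14 of the family's FPKM in αTC1 and 42.7% ± 1.11 in βTC6 (SD, n = 3 each), where Rims3 took 57.1% ± 1.17. Rims1 and Rims4 did not exceed 0.07 FPKM.

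**Figure D3:**
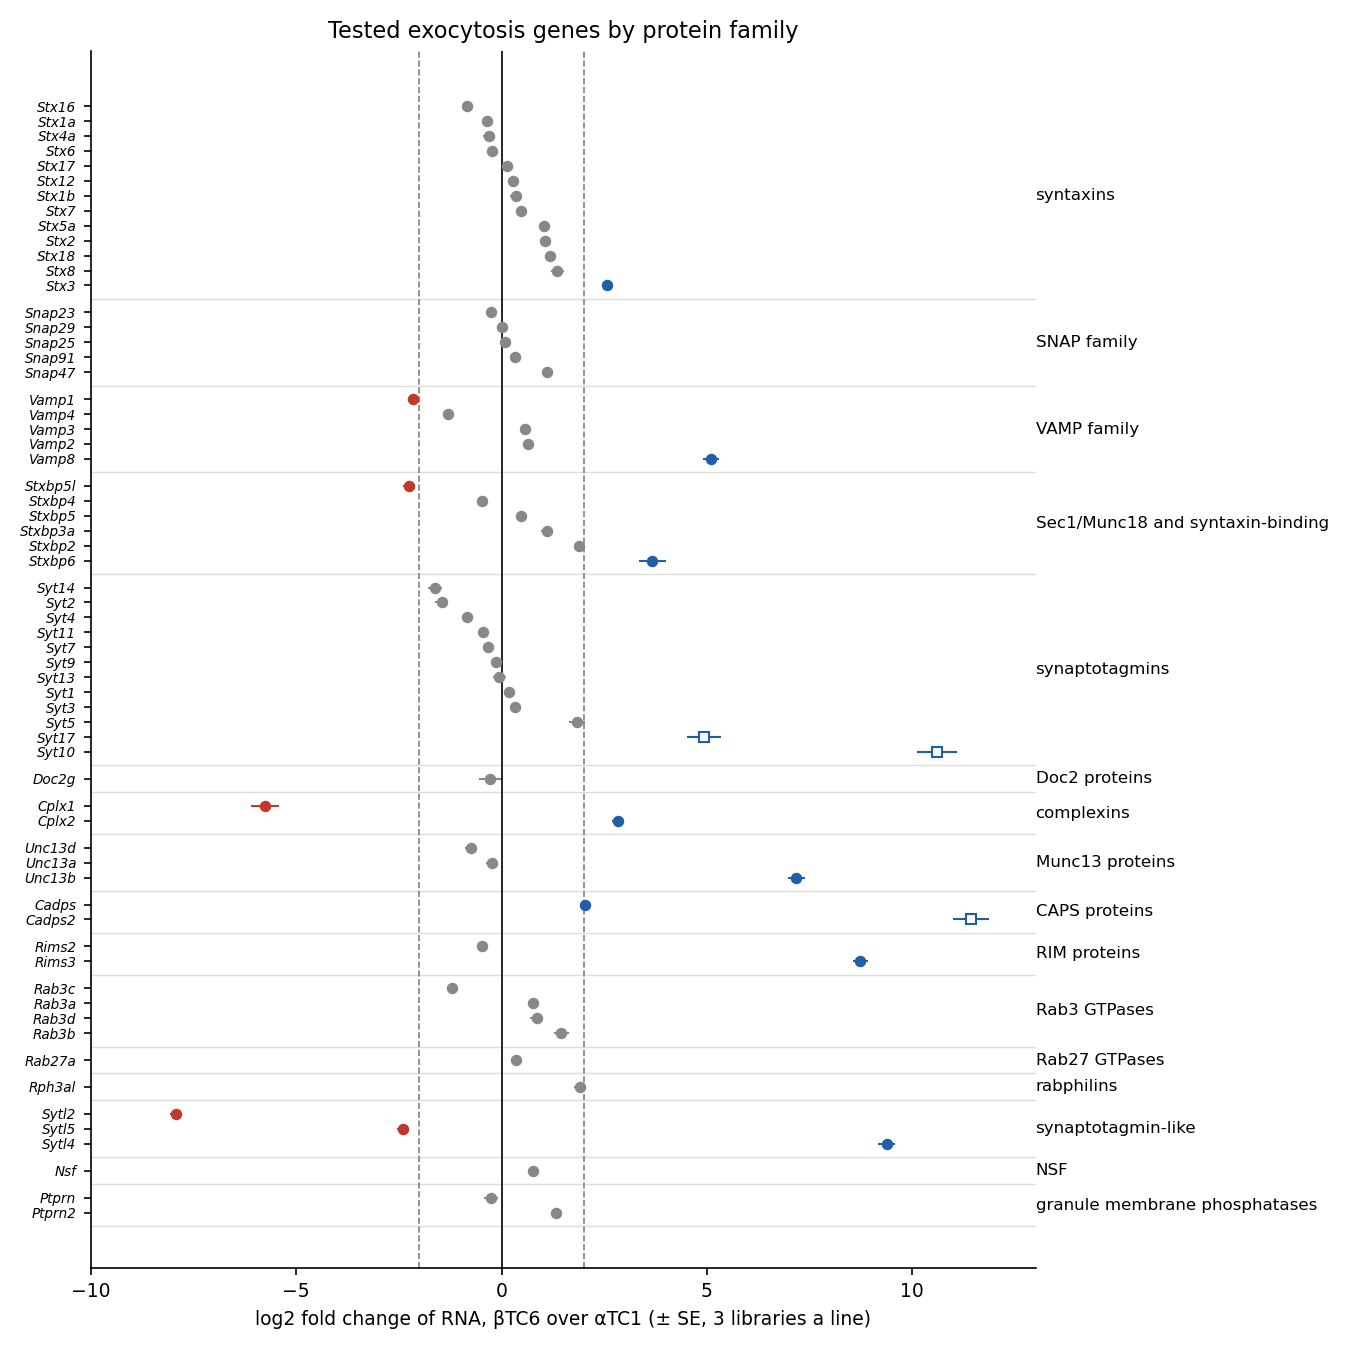
Log2 fold change of RNA (βTC6 over αTC1, ± SE, 3 libraries a line) of tested genes by protein family, with dashed lines at the threshold of 2, blue and red for genes called higher in βTC6 and αTC1 and grey for those not called; open squares mark 3 genes (Syt17, Syt10 and Cadps2) with at most 3 counts in each αTC1 library, whose fitted change depends on the prior count. All SNAP family genes and all syntaxins other than Stx3 (2.56) lie inside the thresholds, while complexins and synaptotagmin-like proteins lie beyond them on both sides.

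Of the SNAREs that act at the plasma membrane, Snap25 was at 89.8, 89.6 and 81.5 FPKM in αTC1 and 98.4, 80.4 and 88.4 in βTC6, with overlapping lines (log2 fold change 0.09 ± 0.09 SE, FDR = 0.341). None of the 5 SNAP genes was called. Stx1a, the neuronal plasma membrane syntaxin, was at 14.8 to 15.0 FPKM in αTC1 and 10.4 to 11.4 in βTC6 (log2 fold change -0.36 ± 0.09 SE, FDR = 0.00489). Of the 13 tested syntaxins, 8 were higher in βTC6 and 3 in αTC1 at FDR below 5%, beside 38.7% and 36.0% of all genes. Stx3 was the 1 called syntaxin (7.69% of the 13, against 10.2% of all genes for calls toward βTC6). Stx3, another plasma membrane syntaxin, was at 4.6, 4.38 and 3.78 FPKM in αTC1 and 21.6, 19.2 and 24.0 in βTC6, with no overlap (log2 fold change 2.56 ± 0.11 SE, FDR = 1.01e-07). Stx5a, which acts between the endoplasmic reticulum and the Golgi, was higher in βTC6 at a log2 fold change of 1.03 ± 0.07 (SE, FDR = 2.02e-06).

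Of the vesicle SNAREs, Vamp8 (endobrevin, chr6:72335217-72340697) was at 1.89, 1.66 and 1.01 FPKM in αTC1 and at 46.1, 52.6 and 49.7 in βTC6 (log2 fold change 5.10 ± 0.19 SE, FDR = 4.69e-08). Vamp1 was at 16.1, 13.9 and 13.5 FPKM in αTC1 and 3.24, 2.68 and 3.57 in βTC6 (log2 fold change -2.16 ± 0.12 SE, FDR = 3.96e-07). Neither gene overlapped between the lines, and with limma on log2(FPKM + 1) Vamp1 was at -1.90 and not called. Vamp2 and Vamp3, the VAMP proteins used by most regulated granules, were higher in βTC6 short of the fold threshold, with log2 fold changes of 0.64 ± 0.08 and 0.58 ± 0.07 (SE, FDR = 7.54e-05 and 7.37e-05). Vamp4, a trans-Golgi SNARE, was higher in αTC1 (log2 fold change -1.31 ± 0.11 SE, FDR = 6.62e-06). Vamp8 held 0.69% ± 0.19 of the family's FPKM in αTC1 and 18.6% ± 1.9 in βTC6, and Vamp4 24.3% ± 1.75 and 8.27% ± 1.60 (SD, n = 3 each). Vamp1, Vamp8 and Cadps2 are on chromosome 6, where the median log2 fold change was -0.76 over 579 tested genes, whose part in the Vamp1 value was not tested.

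Sec1/Munc18 proteins and related syntaxin binders had called members in both directions. Stxbp2 (Munc18-2) was at 13.3 to 13.7 FPKM in αTC1 and 51.6 to 60.2 in βTC6, short of the fold threshold (log2 fold change 1.88 ± 0.09 SE, FDR = 1.67e-07). Stxbp5l (tomosyn-2), an inhibitory syntaxin binder, was at 11.1, 11.4 and 14 FPKM in αTC1 and 2.88, 2.27 and 2.46 in βTC6 (log2 fold change -2.26 ± 0.13 SE, FDR = 6.28e-07). Stxbp6 (amisyn) was at 0.29, 0.07 and 0.22 FPKM in αTC1 and 2.76, 1.63 and 1.85 in βTC6 (log2 fold change 3.67 ± 0.33 SE, FDR = 8.80e-06). Stxbp5l was high in all αTC1 libraries and Stxbp6 in all βTC6 libraries. With limma on log2(FPKM + 1), which understates the change of low genes, their log2 fold changes were -1.90 and 1.35 and neither was called. Stxbp3a and Stxbp3b are near copies, so that the split of reads between them is uncertain, and Stxbp3b did not exceed 0.54 FPKM.

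Of the 17 synaptotagmins, 12 were tested and 2 were called, both higher in βTC6 (16.7%, against 10.2% of all genes). Syt10 (chr15:89612824-89672291) had 0 counts in all 3 αTC1 libraries and 220, 197 and 174 in βTC6 (4.64, 4.12 and 3.85 FPKM). It was at least 63.6-fold higher in βTC6 against the same floor (FDR = 1.29e-06). Syt17 had 6 counts over the αTC1 libraries and 199 over the βTC6 libraries, a ratio of 32.3 at equal depth with an exact 95% interval of 14.6 to 88.9 that covers counting error only (FDR = 5.19e-06). With limma on log2(FPKM + 1) its log2 fold change was 1.31 and it was not called. The abundant Syt13 was at 163, 165 and 111 FPKM in αTC1 and 151, 127 and 129 in βTC6, with overlapping lines (log2 fold change -0.05 ± 0.15 SE, FDR = 0.766). The granule calcium sensors Syt7 and Syt9 were expressed in both lines, at 40.8 to 69.0 and 18.0 to 22.5 FPKM over the 6 libraries, with log2 fold changes of -0.32 ± 0.10 and -0.15 ± 0.10 (SE, FDR = 0.0145 and 0.193). Syt5 was higher in βTC6 and Syt14 in αTC1, both short of the fold threshold, with log2 fold changes of 1.83 ± 0.20 and -1.62 ± 0.17 (SE, FDR = 3.02e-05 and 2.13e-05).

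Among the Rab3 GTPases, which mark granules ready to dock, 3 were higher in βTC6 and 1 in αTC1 at FDR below 5%, of 4 tested genes (beside 38.7% and 36.0% of all genes), and none passed the fold threshold. Rab3a was at 67.6 to 77.8 FPKM in αTC1 and 107 to 126 in βTC6 (log2 fold change 0.77 ± 0.10 SE, FDR = 7.83e-05), and Rab3c was the 1 higher in αTC1 (log2 fold change -1.22 ± 0.07 SE, FDR = 4.49e-07). Rph3al (Noc2), a Rab3 and Rab27 effector, was at 20.3 to 30.3 FPKM in αTC1 and 82.5 to 88.8 in βTC6 (log2 fold change 1.91 ± 0.15 SE, FDR = 3.04e-06). Nsf, the ATPase that takes spent SNARE complexes apart, was higher in βTC6 (log2 fold change 0.76 ± 0.07 SE, FDR = 1.52e-05). Ptprn (IA-2), a granule membrane protein, was at 419.9, 424 and 419 FPKM in αTC1 and 379.8, 391 and 247 in βTC6 and did not pass the test (log2 fold change -0.25 ± 0.17 SE, FDR = 0.193). Its paralog Ptprn2 (phogrin) was at 76.4, 78.1 and 72.9 FPKM in αTC1 and 197, 177 and 161 in βTC6, with no overlap (log2 fold change 1.32 ± 0.10 SE, FDR = 2.37e-06).

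The other 20 genes failed the expression filter and were not tested. Their highest FPKM in any library was 1.35 (Rph3a in βTC6), 18 of them stayed below 1 in every library, and Syt8 and Cplx4 had 0 counts throughout. With no filter, 17 of 82 exocytosis genes were called higher in βTC6, beside 12.8% of all 19570 genes then tested. Without Cadps, which was then not called, this added Doc2a, Doc2b, Rph3a, Syt6, Sytl3, Cplx3 and Vamp5, and in αTC1 it added Rab27b and Stxbp3b.

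A further 7 lists of secretory pathway genes held 78 tested genes outside the machinery. Of these 6 were called higher in βTC6 (7.69%, against 10.2% of all genes) and 0 higher in αTC1 (against 4.08%) by edgeR, with 0 in αTC1 also by DESeq2 and by limma. At an unadjusted p below 0.05, 19 of the 78 were higher in αTC1 by edgeR, beside 36.9% of all genes. The 6 were Apba1, Erc2, Lin7a and Ppfia2 of 14 tested active zone genes and Sv2b and Synpr of 19 tested vesicle membrane genes. Sv2b, a synaptic vesicle glycoprotein, was at 0.33 ± 0.10 FPKM in αTC1 and 29.1 ± 2.28 in βTC6 (SD, n = 3 each). No gene was called by edgeR among 9 of the exocyst, 12 other SNAREs of the endoplasmic reticulum, Golgi and endosome, 6 NSF attachment factors, 5 other Sec1/Munc18 proteins and 13 Rab3 and Rab27 regulators. At FDR alone, 4 exocyst genes were higher in βTC6 and 3 in αTC1, and 7 and 1 of the 12 SNAREs were, beside 38.7% and 36.0% of all genes.

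The accessibility of the 404 peaks was compared with limma on log2(normalized read count + 1), a scale that understates the change of low peaks. By the same thresholds 47 peaks were more open in βTC6 (11.6% of 404, against 12.9% of all 65053 peaks) and 22 in αTC1 (5.45%, against 5.38%), so that both shares were near the background. At FDR alone 155 peaks had more reads in βTC6 and 169 had more in αTC1, beside 39.9% and 38.1% of all peaks. Of the members' calls 68.1% were thus toward βTC6, a share that was 47.5% after quantile normalization (70.6% and 52.5% over all peaks). Of the 69 called peaks, 63 lay more than 2 kb from the start site the authors used, beside 10901 of all 11911 called peaks, 37 were in introns and 28 were intergenic. The smallest log2 difference among the 69, without its sign, was 1.81 in replicates 1 to 3 alone and 1.68 in replicates 4 and 5 alone, a split made because the study computed their quality percentages on different read totals.

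At promoters (peaks within 2 kb of the start site) 5 of 81 peaks were more open in βTC6, against 5.51% of all 14582 promoter peaks, and 1 was more open in αTC1, against 1.41%. The 5 belonged to Unc13b, Sytl4, Cadps2, Stxbp6 and Syt10, whose upstream sequences are printed above. The Unc13b peak (chr4:43071425-43072483) held 2.1, 2.95, 2.1, 1.77 and 1.01 normalized reads in the αTC1 libraries and 47.9, 35.9, 45.0, 36.2 and 38.2 in the βTC6 libraries (log2 fold change 3.82 ± 0.18 SE, FDR = 3.44e-13). The Sytl4 peak (chrX:130515732-130516437) held 1.68, 0.421, 0.601, 0.409 and 0.144 in αTC1 and 13.2, 14.6, 13.6, 11.7 and 15.3 in βTC6 (log2 fold change 3.21 ± 0.23 SE, FDR = 1.87e-10). The Cadps2 peak (chr6:23788378-23790487) held 6.44, 6.18, 5.86, 7.78 and 2.60 in αTC1 and 42.5, 51.5, 48.4, 45.8 and 55.5 in βTC6 (log2 fold change 2.93 ± 0.18 SE, FDR = 1.96e-11). At all 3, each βTC6 library was above each αTC1 library. The Stxbp6 and Syt10 promoters held 7.37 to 14.9 and 1.16 to 3.09 in αTC1 and 55.6 to 70.6 and 9.23 to 21.3 in βTC6 (log2 fold changes 2.36 ± 0.14 and 2.36 ± 0.24 SE, FDR = 1.08e-11 and 1.88e-08). In replicates 1 to 3 alone the Syt10 difference was 1.99 and was not called. With a pseudocount of 5 in place of 1, the Sytl4 and Syt10 differences were 1.73 and 1.47 and neither was called. The promoter peak more open in αTC1 belonged to Stx11 (log2 fold change -2.20 ± 0.20 SE, FDR = 4.95e-09), whose RNA did not exceed 1.23 FPKM.

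Of the 5 genes called higher in αTC1 by RNA, 4 had a promoter peak, with a difference below the fold threshold in each. The Cplx1 promoter peak (chr5:108978407-108979526) was at 33.4 ± 2.91 normalized reads in αTC1 and 13.3 ± 2.62 in βTC6 (SD, n = 5 each; log2 fold change -1.29 ± 0.13 SE, FDR = 1.87e-08, limma). The Sytl2 promoter was at 23.0 ± 1.75 and 11.5 ± 1.99 (log2 fold change -0.95 ± 0.13 SE, FDR = 1.06e-06) and that of Vamp1 at 96.2 ± 3.42 and 41.9 ± 2.31 (log2 fold change -1.18 ± 0.08 SE, FDR = 5.84e-11). Across the peaks of each gene's chromosome, the median difference on the log2 scale was 0.31 for Cplx1 (chromosome 5, 4249 peaks), -0.57 for Sytl2 (chromosome 7, 3276 peaks) and -0.79 for Vamp1 (chromosome 6, 4291 peaks), and its part in these values was not tested. The Stxbp5l promoter did not pass the test (log2 fold change -0.17 ± 0.11 SE, FDR = 0.157). The 5th gene, Sytl5, had no promoter peak, and its 1 peak, in an intron 24059 bp downstream of the start site, held 7.90 ± 1.04 normalized reads in αTC1 and 20.5 ± 4.11 in βTC6, opposite in direction to its RNA and short of the fold threshold (log2 fold change 1.26 ± 0.15 SE, FDR = 2.76e-07). Sytl2 also had 4 called peaks away from its start site, all more open in αTC1. The one 35969 bp upstream (chr7:97460901-97461579) held 23.0, 25.3, 21.6, 21.7 and 19.2 normalized reads in αTC1 and 1.56, 1.44, 1.89, 0.143 and 1.88 in βTC6, with no overlap (log2 fold change -3.35 ± 0.24 SE, FDR = 1.29e-10).

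Rims3 had no peak within 2 kb of the start site the authors used. Its called peak (chr4:120527270-120527698, log2 fold change 2.49 ± 0.23 SE, FDR = 5.59e-09) lay 22990 bp upstream of that site and over a GENCODE start of Rims3. With a pseudocount of 5 its difference was 1.38 and was not called. By GENCODE starts, 9 of the 69 called peaks lay over or within 2 kb of a start of their gene.

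Called distal peaks also lay nearest to genes whose RNA was not called. The peak 335382 bp upstream of Syt1 (chr10:108782953-108783873) held 1.12, 2.11, 1.35, 1.64 and 1.59 normalized reads in αTC1 and 36.4, 46.6, 35.3, 37.8 and 46.3 in βTC6, with no overlap (log2 fold change 4.02 ± 0.16 SE, FDR = 5.85e-14). Syt1 RNA was at 3.55, 3.68 and 3.46 FPKM in αTC1 and 3.85, 3.99 and 3.58 in βTC6 (FDR = 0.150, edgeR). Upstream of Stx16, 5 called peaks had more reads in βTC6 at log2 fold changes from 2.09 to 3.50, beside an RNA that was lower there (log2 fold change -0.84 ± 0.12 SE, FDR = 0.000154). With a pseudocount of 5 the Stx16 peak 56851 bp upstream was at 1.81 and not called, and that 55487 bp upstream kept its call. The other called Stx16 peaks were not followed singly over the alternatives. A Syt7 intron peak (chr19:10491354-10492398) was at 40.5 ± 4.5 normalized reads in αTC1 and 3.99 ± 1.65 in βTC6 (SD, n = 5 each; log2 fold change -3.12 ± 0.20 SE, FDR = 2.65e-11). Cplx2, whose RNA was higher in βTC6, had a peak 67946 bp upstream (chr13:54404151-54405382, its centre printed above) that was more open in αTC1, at 35.7 ± 1.77 against 6.75 ± 1.91 normalized reads (SD, n = 5 each; log2 fold change -2.28 ± 0.16 SE, FDR = 1.53e-10). With a pseudocount of 5 that difference was -1.81 and was not called. A peak 20271 bp downstream of the Cplx2 start was more open in βTC6 (log2 fold change 2.09 ± 0.20 SE, FDR = 1.31e-08). The nearest start site does not show which gene a peak acts on, and 21 of the 22 Vamp3 peaks lay inside Camta1.

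On chromosome 1 lay 8 of the 22 peaks more open in αTC1, near Vamp4, Syt14, Syt2, Stx6, Ptprn and Rims1. This chromosome held 29 of the 404 member peaks and 5355 of all 65053 peaks. How many of all 3502 peaks called toward αTC1 lay there was not counted. The median log2 fold change on that chromosome was -0.61 over 5355 peaks and -0.67 over 696 tested genes, and its part in these values was not tested. The Vamp4 intron peak (chr1:164518463-164519348) was at 40.2 ± 2.21 normalized reads in αTC1 and 3.63 ± 1.22 in βTC6 (SD, n = 5 each; log2 fold change -3.20 ± 0.17 SE, FDR = 2.49e-12). The Syt14 peak 17710 bp upstream (chr1:194879335-194879868, its centre printed above) was at 26 ± 1.60 and 2.79 ± 0.63 (SD, n = 5 each; log2 fold change -2.85 ± 0.16 SE, FDR = 4.43e-12). With a pseudocount of 5 the Syt14 difference fell just short of the threshold and was not called.

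RNA and promoter accessibility were set side by side for the 55 tested genes with a promoter peak. Their signs matched in 36 of 55 genes (65.5%, Wilson 95% interval 52.3 to 76.6%) and in 13 of the 13 called genes among them. The interval treats genes as independent, which genes of shared libraries are not, and the share over all genes was not computed. The median log2 fold change over all 14582 promoter peaks was -0.31, and its part in these signs was not tested. Pearson's r across genes was 0.82 and Spearman's rho 0.70, a description over genes that share libraries and are not replicates. Of the 13, 5 also had a called promoter peak, each in βTC6. When each of the 60 tested genes with any peak was instead paired with its peak of largest change, r was 0.49 and rho 0.44, and signs matched in 39 of 60 genes and in 13 of the 16 called genes. Rab3d and Syt5 had opposite signs, with higher RNA in βTC6 (log2 fold changes 0.86 and 1.83) and more open promoters in αTC1 (log2 fold changes -1.16 ± 0.11 and -0.60 ± 0.11 SE, FDR = 1.59e-08 and 5.60e-05).

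**Figure D4:**
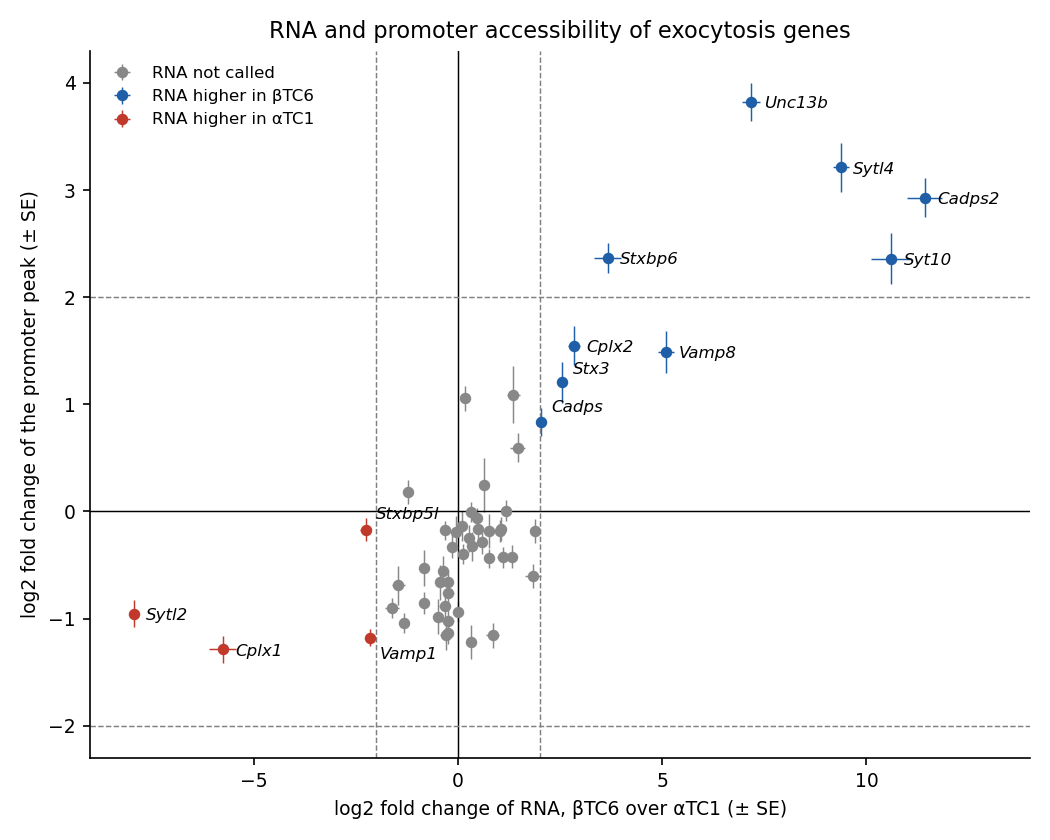
Log2 fold change of RNA against log2 fold change of the promoter peak nearest the start site, both βTC6 over αTC1, for 55 genes, with bars for the SE, dashed lines at the threshold of 2 and colours by the RNA call; the RNA values of Cadps2 and Syt10 are fitted against 0 counts in αTC1. Unc13b, Sytl4, Cadps2, Syt10 and Stxbp6 lie beyond both thresholds. Beyond the RNA threshold alone lie, in αTC1, Cplx1, Sytl2, Vamp1 and Stxbp5l, with promoter changes between -1.29 and -0.17. In βTC6 these are Vamp8, Cplx2, Stx3 and Cadps, with promoter changes between 0.83 and 1.55.

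The 9 mixtures had no part in these fits, though the study merged the peaks of all samples into its consensus set. They are blends of the same lines, so that a peak differing strongly between pure lines is bound to be graded in them. For 77 named peaks, the normalized read count was related to the percentage of αTC1 cells by an exact two-sided permutation test, with Benjamini-Hochberg adjustment over the 77. All 34 called peaks among them followed the direction of the pure lines, with absolute Pearson's r from 0.74 to 0.99 (median 0.93) and adjusted p of at most 0.0339. Of the 43 named peaks that were not called, 38 also followed the pure lines, with a median absolute r of 0.74, and 22 had an adjusted p below 0.05. The Cadps2 promoter fell at every step, from 44.6 normalized reads at 10% αTC1 over 28.8 at 50% to 5.89 at 90% (r = -0.98, exact permutation p = 5.51e-06, the smallest that 9 mixtures allow, adjusted p = 0.000106, with rho = -1 at the same exact p). The Syt1 distal peak also fell at every step, from 48.9 over 22.7 to 5.49 (r = -0.96, rho = -1, with the same exact p for both). The Sytl2 peak 35969 bp upstream was at 5.92, 15.5 and 19.9 at these percentages (r = 0.93, exact permutation p = 0.000694, adjusted p = 0.00201, with rho = 0.92 and exact permutation p = 0.00131). Without the mixtures at 10% and 90% αTC1, absolute r was at least 0.64 and 23 of the 34 peaks kept an adjusted p below 0.05. The Cplx1 promoter, which was not called, had r = 0.53 (exact permutation p = 0.145, adjusted p = 0.180, with rho = 0.58 and exact permutation p = 0.108).

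**Figure D5:**
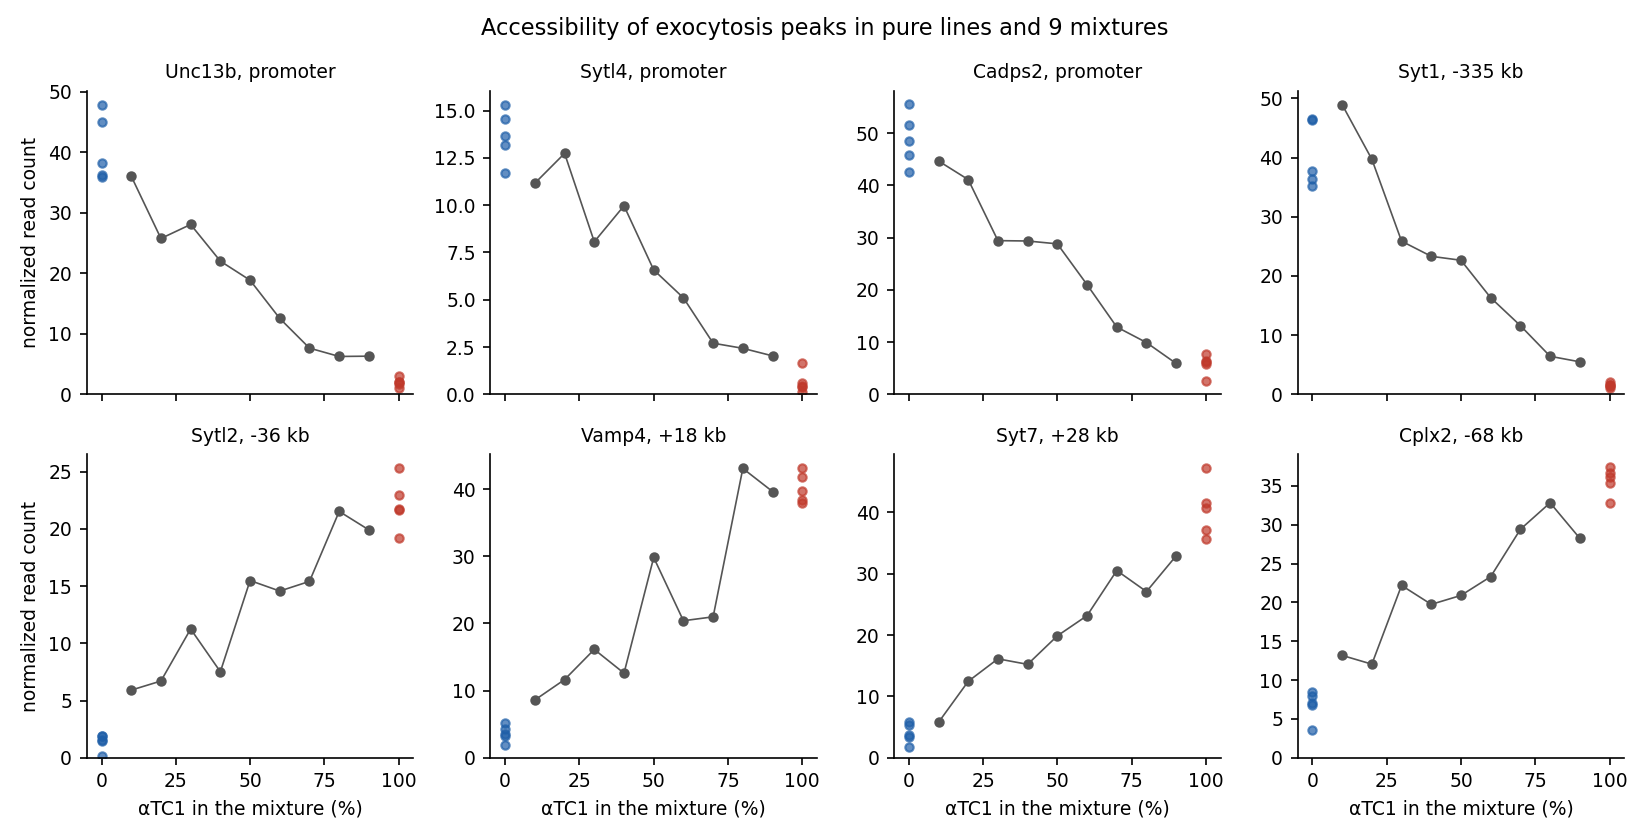
Normalized read count against the percentage of αTC1 cells for 8 called peaks, with the 5 βTC6 libraries (blue) at 0%, the 5 αTC1 libraries (red) at 100% and the 9 mixtures (grey, 1 library each) joined by a line. The Unc13b, Sytl4 and Cadps2 promoters and the distal Syt1 peak decline with the αTC1 percentage, and the Sytl2, Vamp4, Syt7 and Cplx2 peaks are higher at 90% than at 10%.

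The RefSeq promoter table (build GRCm38.p6, 250 bases before to 50 after each start) matched 64 of the 84 genes. CAGCTG was found on either strand in 24 of their 80 windows (30%), against 16.3% of all 32851 windows. TGACGT was found in 5% (all windows 7.51%), TAATTA in 1.25% (5.29%) and TGTTTAC in 2.5% (3.65%). These shares describe the letters in the windows only.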

How the data were processed

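RNA-seq (3 samples of each line) and ATAC-seq (5 of each line and 9 mixtures) were analysed from the deposited tables. Per the labels and the study's methods, the authors counted RNA reads with RSEM 1.2.12 and Bowtie2 on mm9 and deposited expected counts and FPKM per gene. For ATAC-seq the authors aligned reads with BWA 0.7.9a, called peaks with MACS2 2.1.0, built consensus peaks with DiffBind 2.2.5 and deposited a TMM-normalized read count per peak, a signal with replicates kept apart. Divided by what 1 read was worth in its library, 100% of these values came out as whole reads (tolerance 0.01), and no peak was listed at 0.

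Expected counts were rounded, the 92 spike-ins left out and genes tested with edgeR 4.0.16 (quasi-likelihood, TMM). The study's own RNA analysis normalized to spike-ins instead. Peaks were tested with limma 3.58.1 (trend) on log2(normalized read count + 1). P-values were adjusted by Benjamini-Hochberg over all features. On simulated data at 12195 genes, edgeR called 200 of 200 genes changed by log2 1 and 17 unchanged ones. At 65053 peaks, limma called 133 of 200 peaks changed by log2 1 and 10 unchanged ones, and 200 of 200 changed by log2 3. Floors and intervals cover counting error only. A floor of 3 counts is 1.37e-05% of the shallowest RNA library.

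Members and lists were chosen with earlier results of these data known. Named were called genes, those of a core exocytosis list and the 10 most abundant. Of that list of 53 symbols, 44 were tested, and 8 were called higher in βTC6 (18.2%, against 10.2% of all genes) and 4 in αTC1 (9.09%, against 4.08%). Named peaks were, for each such gene, the one nearest the start within 2 kb and the called one with the largest change, and the 5 with the largest t-statistic each way. Other genes, such as Stx5a, were named after their values were seen where a count needed it. Members not named are covered by the counts, and 1 gene is not reported here. The alternatives were other normalizations, filters, pseudocounts and tools (DESeq2 1.42.0 among them), a replicate block, ATAC replicates 1 to 3 or 4 and 5 alone and leaving out each library.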

Additional observations from a re-analysis of the deposited data

Results flagged for a closer look

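Single libraries stood apart from the other 4 of their line at 2 peaks, among 84 groups of 5 libraries at 42 peaks, where Dixon's test at its 95% critical value (0.71) flags about 1 in 20 groups by chance, or 4.2 here. At the Sytl2 peak 35969 bp upstream, βTC6 replicate 4 held 0.143 normalized reads, against 1.44 to 1.89 in the other βTC6 libraries. At the Vamp1 promoter, αTC1 replicate 4 held 90.2 against 96.8 to 98.9. Both libraries stayed on their own line's side of the difference.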

How the results depend on the processing

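With no expression filter, 17 exocytosis genes were called higher in βTC6, and over all genes 2510 in βTC6 and 1020 in αTC1, and 1 gene of the other lists was then higher in αTC1. With limma on log2(FPKM + 1), 8 exocytosis genes were called higher in βTC6 and 3 in αTC1, 702 and 277 of all genes in βTC6 and αTC1, and 3 of the other lists in βTC6. Vamp1, Stxbp5l, Stxbp6, Syt17 and Cadps lost their call there. Exocytosis peaks called in βTC6 and αTC1 numbered 79 and 36 with edgeR on recovered reads (13794 and 5739 of all peaks), 7 and 4 with a pseudocount of 5 (1668 and 819) and 28 and 31 after quantile normalization (5555 and 5032). Leaving out 1 library gave 11 to 12 and 5 to 5 exocytosis genes in βTC6 and αTC1, 1227 to 1316 and 496 to 522 of all genes, 46 to 50 and 22 to 24 exocytosis peaks and 8151 to 8620 and 3314 to 3714 of all peaks. Without αTC1 replicate 3, Syt5 and Rph3al were also called.

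Signs turned for Syt13 RNA without αTC1 replicate 1 (0.033) or 2 (0.046), its range over left-out libraries being -0.21 to 0.046. After quantile normalization they turned at promoter peaks, none of them called, of Snap25 (0.25), Stx2 (0.038), Stx5a (0.20), Stxbp5 (0.41, and 0.045 in replicates 4 and 5), Stxbp5l (0.18), Syt7 (0.13), Syt9 (0.047), Vamp2 (-0.082) and Vamp3 (0.14). In the mixtures without 10% and 90% αTC1, r turned for Nsf (-0.047), Stx2 (0.43) and Stx4a (-0.12). Of the values of single named genes, 588 kept direction and side of the threshold over the alternatives, 8 lost and 2 gained a call. For named peaks these numbers were 1318, 44 and 8.

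Same-numbered samples did not deviate together (r = -0.04, 0.02 and -0.01 for RNA replicates 1 to 3, and 0.00 to 0.07 for ATAC), so that the numbers do not pair samples. With a replicate block, 11 and 5 exocytosis genes and 47 and 22 peaks were called in βTC6 and αTC1. Depth limits genes near the floor of 3 counts, such as Syt17 and Doc2b, and peaks of a few reads, whose change depends on the pseudocount. With 1 library per mixture, mixtures have no replicate error.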
